A study of Bos taurus with 45 samples.

Results

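The transcripts described here are those of the amino acid transporter families SLC1, SLC3, SLC6, SLC7, SLC36, SLC38 and SLC43 in bovine endometrium and conceptus tissue. Members were taken by gene symbol and not by their levels, though they were chosen with earlier results of these data known. They numbered 58 of 27270 genes in the endometrial table and 47 of 16149 in the conceptus table. All 47 were also in the endometrial table. The other 11 (SLC1A6, SLC1A7, SLC6A5, SLC6A7, SLC6A13, SLC6A16, SLC6A18, SLC7A3, SLC7A10, SLC7A14 and SLC36A3) were in the endometrial table alone. The conceptus table had been filtered by a rule not given in the sources used here, so their level in conceptus tissue is not analysed here.

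The study placed sections of Day 16 elongated conceptuses on explants of Day 16 endometrium for 12 h and compared each tissue with the same tissue cultured alone. Endometrium was intercaruncular, from cyclic Angus-Holstein heifers that had not been bred, and was cultured with conceptus sections (Endo-IVD Conc endometrium, 15 libraries of 11 uteri) or alone (Endo, 13 libraries of 13 uteri, including those 11). In vivo derived (IVD) conceptuses came from heifers bred by artificial insemination to an Angus bull, and sections of them were laid on explants (Endo-IVD Conc conceptus, 9 libraries of 7 conceptuses) or kept alone (IVD Conc, 8 libraries of 8 conceptuses, including those 7). All cultures used RPMI medium with dialyzed serum. A section holds only a small piece of a conceptus, and Endo-IVD Conc endometrium had not been exposed to a conceptus before culture.

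Amino acid carriers move amino acids across the cell surface and the lysosome membrane. The SLC3 proteins are heavy chains that bring SLC7 light chains to the surface. Many SLC1, SLC6 and SLC38 carriers use sodium to take up or exchange amino acids. SLC36A1 and SLC36A2 use protons, and SLC43A1 and SLC43A2 let large neutral amino acids pass down their gradient. Members taken by symbol also include carriers of other substrates. Among them are the monoamine carriers SLC6A2, SLC6A3 and SLC6A4, and SLC6 carriers of GABA, betaine, taurine and creatine. In ruminants and other mammals, the endometrium secretes amino acids into the uterine lumen before implantation, and the elongating conceptus takes them up for growth. Nucleotide and protein sequences of the members were not used here.

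Total counts per library ranged from 48667308 to 63970863 in Endo-IVD Conc endometrium, from 44206002 to 61504851 in Endo, from 58583647 to 92005370 in Endo-IVD Conc conceptus and from 65488142 to 104436922 in IVD Conc. In Endo-IVD Conc endometrium, 3 of 8 smooth muscle markers and 1 of 6 hypoblast markers tested rose and 2 of 10 endothelial markers fell against Endo. The summed level of the smooth muscle list ran from 687 to 10011 CPM in Endo-IVD Conc endometrium, against 372 to 1913 CPM in Endo, and was highest in explants of uteri 38 and 69. The hypoblast list summed to between 277 and 865 CPM in Endo-IVD Conc endometrium, against 259 to 885 CPM in Endo. It shares PDGFRA with the endometrial stroma list and FOXA2 with the endometrial epithelium list. None of the 9 trophoblast markers tested in endometrium was called. That list summed to between 648 and 1656 CPM in Endo-IVD Conc endometrium, against 853 to 1785 CPM in Endo. In conceptus tissue the 2 erythroid markers in the table summed to between 1.7 and 70.2 CPM in Endo-IVD Conc conceptus, against 1.4 to 9.2 CPM in IVD Conc, and 1 of the 2 rose. None of the 21 trophoblast markers passed the test there, but the IVD Conc library of conceptus 5 stood apart: 18 of 21 trophoblast markers were lower in it than in the other 7 IVD Conc libraries, with GATA3 at 1.85 CPM (12.5 to 293 CPM in the others) and TFAP2C at 2.58 CPM (9.21 to 168 CPM in the others). No co-cultured section of conceptus 5 entered the comparisons, and tests without its IVD Conc library are given beside the results below. The endometrial epithelium list summed to between 8376 and 17095 CPM in Endo-IVD Conc conceptus, against 6125 to 10098 CPM in IVD Conc, and the endometrial stroma list to between 15.7 and 190.9 CPM, against 17.1 to 281 CPM. The epithelium list was lower in endometrium itself, at 339 to 6223 CPM in Endo-IVD Conc endometrium and 334 to 6136 CPM in Endo. It was thus not particular to endometrial epithelium in these libraries. No marker of these lists was called by edgeR in conceptus tissue. The part of these lists in the results below was not tested.

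In mono-culture, the families made up a broad repertoire in both tissues. Levels are CPM, a gene's counts relative to the total of its library, scaled by the trimmed mean of M values, and are compared here only for 1 gene at a time, because no transcript lengths were used. At 1 CPM or more in the median library, 38 of 47 members (80.9%) were detected in IVD Conc, beside 73.7% of all genes in that table, and 37 of 58 (63.8%) in Endo, beside 50.5% of all genes. Without conceptus 5 the IVD Conc count was again 38. The tissues differed in how RNA was extracted, were aligned with different programs and were normalized separately, so their levels are set side by side without a test. The part of RNA quality in these levels was not tested. Between the 8 IVD Conc and 13 Endo libraries, the CPM ranges did not overlap for 13 of the 47 shared members: 8 were higher in IVD Conc, where 16.5% of all shared genes were, and 5 were higher in Endo, where 22.7% of all shared genes were. Without conceptus 5 these counts were 11 (17.8% of all shared genes) and 6 (23.6%), with SLC6A3, SLC6A11, SLC7A4 and SLC1A5 added.

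Of the 8 that were higher in IVD Conc, 4 were SLC7 light chains. SLC7A8 (LAT2), which exchanges neutral amino acids as a partner of SLC3A2, ran from 351 to 1554 CPM in IVD Conc (median 863) and from 5.79 to 41.7 CPM in Endo (median 16.2), 53.1 times apart by medians. SLC7A7, which exchanges cationic for neutral amino acids, had a median of 64.1 CPM in IVD Conc and 10.2 CPM in Endo. SLC43A2 (LAT4), a facilitative carrier of branched-chain amino acids and phenylalanine, ran from 34.9 to 208 CPM in IVD Conc and from 2.80 to 15.4 CPM in Endo. SLC6A19 (B0AT1), known from gut and kidney as a carrier of neutral amino acids, ran from 12.7 to 62.6 CPM in IVD Conc and from 0 to 0.75 CPM in Endo. The remaining 4 were SLC7A9, SLC7A11 (the cystine and glutamate exchanger xCT) and the lysosomal members SLC36A1 and SLC38A9, of which SLC38A9 is an arginine sensor of the mTORC1 kinase complex.

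The 5 members that were higher in Endo were SLC36A4, SLC38A4, SLC6A14, SLC43A1 and SLC3A1. SLC36A4 (PAT4), which carries proline and tryptophan, had a median of 8.79 CPM in IVD Conc and 134 CPM in Endo. SLC38A4 (SNAT4), a sodium-coupled carrier of small neutral amino acids that is imprinted in mouse placenta, had medians of 0.108 CPM in IVD Conc and 12.7 CPM in Endo. SLC6A14, which takes up neutral and cationic amino acids, had medians of 0.211 CPM in IVD Conc and 2.47 CPM in Endo. SLC43A1 had medians of 39.5 CPM in IVD Conc and 98.1 CPM in Endo, and the heavy chain SLC3A1 had 1.32 CPM in IVD Conc and 3.38 CPM in Endo. For the other heavy chain, SLC3A2, the Endo range lay within that of IVD Conc, with medians of 340 CPM in IVD Conc and 404 CPM in Endo.

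**Figure D1:**
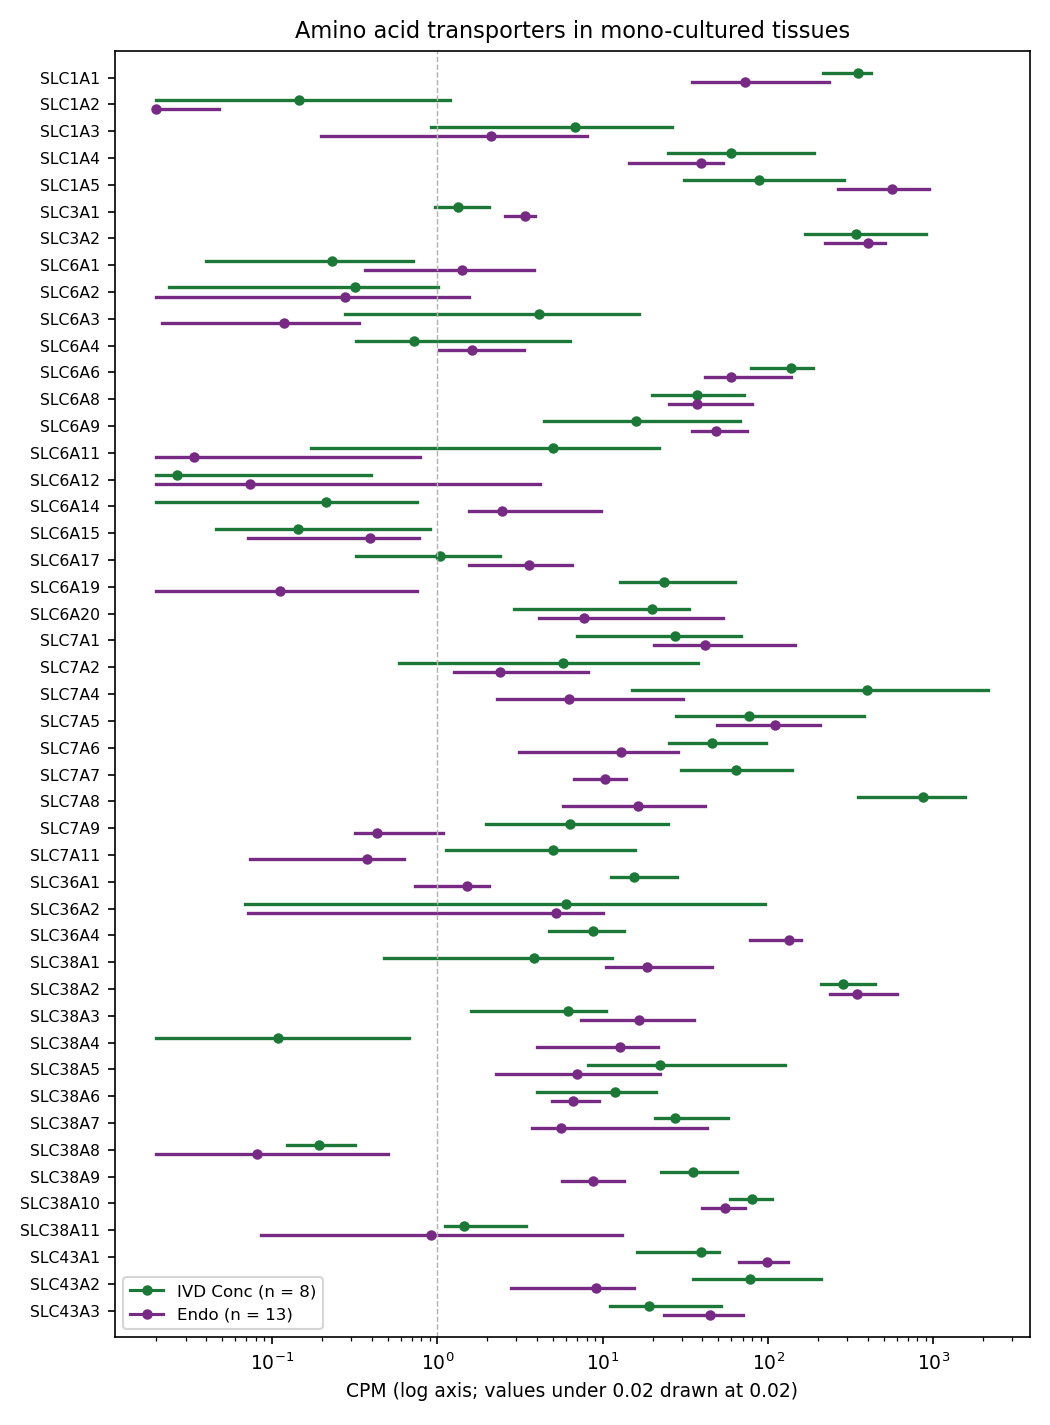
CPM of the 47 members found in both tables (log axis), with the line running from the lowest to the highest library and the point at the median, for IVD Conc (green) above Endo (purple). SLC7A8 at 863 CPM in IVD Conc and 16.2 CPM in Endo, and SLC36A4 at 8.79 CPM in IVD Conc and 134 CPM in Endo, are among the pairs of ranges that do not overlap.

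The first comparison asked how endometrium changed when a conceptus section was cultured on it. Of 46 members with enough counts to be tested, SLC6A9 and SLC3A2 rose in Endo-IVD Conc endometrium relative to Endo and none fell (edgeR quasi-likelihood test, Benjamini-Hochberg adjusted p at most 0.05 over 16443 genes). Of all genes tested, 4.98% rose and 2.15% fell, so 2 of 46 members is near the background share. At an unadjusted p of at most 0.05, 6 members were higher and 3 were lower, where 9.68% of all genes were higher and 10.4% lower. DESeq2 called 3 members higher (SLC6A9, SLC3A2 and SLC7A9) and 0 lower, and of all genes 5.46% higher and 3.12% lower. SLC7A9, at a median of only 0.432 CPM in Endo, had a log2 fold change of 0.72 in that fit (adjusted p = 0.0402 by DESeq2). The median log2 fold change (LogFC, co-culture over mono-culture) was -0.07 over the 46 members and -0.04 over all genes.

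SLC6A9 (GLYT1), the sodium-coupled carrier that takes up glycine, had the larger rise. Its level ran from 57.5 to 121 CPM in Endo-IVD Conc endometrium (median 87.8) and from 34.6 to 74.3 CPM in Endo (median 48.6). The lowest co-cultured values, 57.5 and 64.4 CPM in uteri 70 and 56, lay below the highest Endo values, 74.3 and 65.7 CPM in uteri 38 and 56, so the groups overlapped. The means were 89.5 ± 19.7 CPM in Endo-IVD Conc endometrium (SD, n = 15) and 51.3 ± 11.5 CPM in Endo (SD, n = 13), and edgeR gave a LogFC of 0.80 ± 0.12 (SE) with an adjusted p of 1.72e-05. In 10 of 11 uteri the co-cultured explants had more, uterus 56 being the exception. The LogFC stayed between 0.74 and 0.87 when each culture set was left out, and was 0.84 without uteri 38 and 69, the uteri whose co-cultured explants had the most smooth muscle transcript. A culture set here is the uteri joined by shared conceptuses, except that uterus 38, whose conceptuses were on no other uterus in these libraries, stands alone, and that uteri 15 and 17, which had Endo libraries only and so share no conceptus here, were kept together as 1 set.

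SLC3A2 (4F2hc), the heavy chain of the LAT1, LAT2, y+LAT and xCT exchangers, rose by a smaller step. It ran from 289 to 657 CPM in Endo-IVD Conc endometrium (median 537) and from 222 to 511 CPM in Endo (median 404). The ranges overlapped widely, with the co-cultured explant of uterus 16 (289 CPM) below all but 2 of the Endo libraries. The means were 521 ± 105 CPM in Endo-IVD Conc endometrium (SD, n = 15) and 390 ± 78.7 CPM in Endo (SD, n = 13), with a LogFC of 0.42 ± 0.12 (SE) and an adjusted p of 0.0280 by edgeR. Co-cultured explants had more in 10 of 11 uteri. The call was lost when the culture sets of uteri 15 and 17 (adjusted p = 0.0608), 19 and 54 (0.0908), 14 and 39 (0.149), 69 and 70 (0.0760) or uterus 38 (0.0508) were left out in edgeR, and without uteri 38 and 69 (LogFC 0.44, adjusted p = 0.0816). None of the SLC7 light chains that pair with it was called: the LogFC was -0.08 ± 0.19 (SE) for SLC7A5 (LAT1), 0.09 ± 0.22 for SLC7A6 and -0.23 ± 0.31 for SLC7A8.

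Explants of the same uterus resembled each other, and with the uterus as a block edgeR called 5 members, 2 higher and 3 lower, in a fit that called 6.69% of all genes higher and 3.85% lower. SLC6A9 (LogFC 0.67, adjusted p = 1.49e-04) and SLC3A2 (LogFC 0.28, adjusted p = 0.00700) stayed higher, though SLC3A2 was not called with the culture set as the block (LogFC 0.29, adjusted p = 0.111 by edgeR). The 3 members that fell in this fit and were not called without the block were each lower in co-culture in 10 of 11 uteri, but only SLC43A1 among them was called when the co-cultures of 1 uterus were also summed. That fit called SLC6A9, SLC3A2 and SLC6A17 higher (SLC6A17, LogFC 0.54, adjusted p = 0.0432) and SLC43A1 lower, where 5.8% of all genes were higher and 2.19% lower. SLC1A5 (ASCT2), which exchanges glutamine and small neutral amino acids, ran from 302 to 705 CPM in Endo-IVD Conc endometrium (median 551) and from 263 to 935 CPM in Endo (median 560). Its mean log2 ratio of co-culture over mono-culture ran from -1.18 in uterus 16 to 0.035 in uterus 70. It was only -0.003, -0.03 and -0.05 in uteri 19, 14 and 53. Its LogFC was -0.33 ± 0.09 (SE) with the uterus as a block (edgeR adjusted p = 0.0299), -0.34 with summed co-cultures (adjusted p = 0.0613) and -0.25 ± 0.15 without the block (adjusted p = 0.385). SLC43A1 (LAT3), a carrier of branched-chain amino acids, had means of 83.8 ± 9.44 CPM in Endo-IVD Conc endometrium (SD, n = 15) and 98.5 ± 17.2 CPM in Endo (SD, n = 13), with a blocked LogFC of -0.25 ± 0.06 (SE; adjusted p = 0.00768, and 0.0443 with summed co-cultures, by edgeR). SLC38A3 (SNAT3), which carries glutamine, histidine and asparagine, had means of 12.6 ± 4.17 CPM in Endo-IVD Conc endometrium (SD, n = 15) and 17.5 ± 7.51 CPM in Endo (SD, n = 13), with a blocked LogFC of -0.49 ± 0.12 (SE; adjusted p = 0.00902 by edgeR), and with summed co-cultures one of -0.45 that missed the threshold narrowly (adjusted p = 0.05001).

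**Figure D2:**
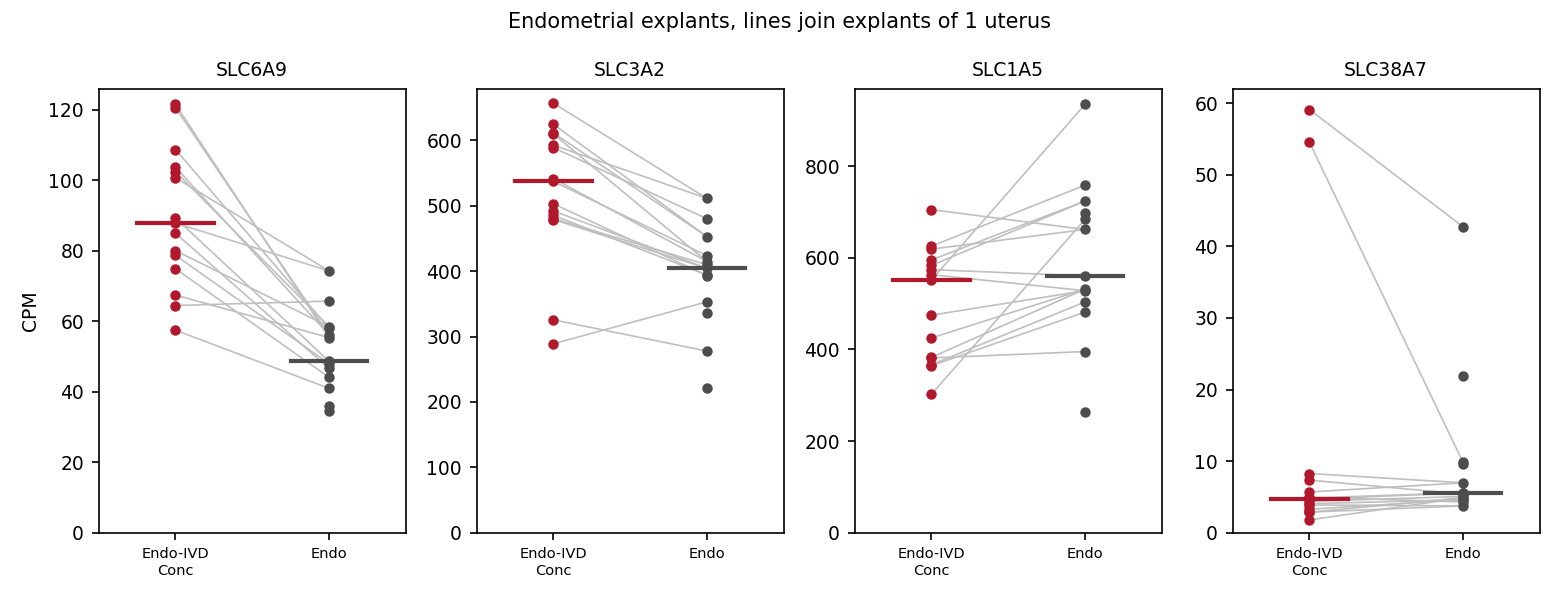
CPM of SLC6A9, SLC3A2, SLC1A5 and SLC38A7 in endometrial explants, Endo-IVD Conc (n = 15, left) and Endo (n = 13, right); each point is a library, the bar is the median and lines join explants of 1 uterus. Nearly all lines of SLC6A9 and SLC3A2 run down to the right (higher with a conceptus in 10 of 11 uteri, co-cultures of 1 uterus averaged). SLC1A5 was lower with a conceptus in 10 of 11 uteri by the same averages. Its mean log2 ratio was only -0.003, -0.03 and -0.05 in uteri 19, 14 and 53. SLC38A7 has 2 high libraries in each group.

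By role, the members of glycine and proline transport had the highest median in endometrium, 0.65 over 3 tested (SLC6A9, SLC6A7 and SLC6A20), of which SLC6A9 was called. The system A carriers SLC38A1, SLC38A2 and SLC38A4, which take up small neutral amino acids with sodium, had a median of -0.10 and no call. The 4 cationic SLC7 members tested, which include the arginine carriers SLC7A1 and SLC7A2, had a median of -0.05 and no call. SLC43A2 was lower without passing the test, at 5.88 ± 1.72 CPM in Endo-IVD Conc endometrium (SD, n = 15) and 8.55 ± 3.65 CPM in Endo (SD, n = 13), with an edgeR adjusted p of 0.111. SLC1A4 (ASCT1), which exchanges alanine, serine, cysteine and threonine, had means of 41.6 ± 8.5 CPM in Endo-IVD Conc endometrium (SD, n = 15) and 39.6 ± 10.3 CPM in Endo (SD, n = 13; adjusted p = 0.842 by edgeR). SLC3A1 had 2.97 ± 0.463 CPM in Endo-IVD Conc endometrium (SD, n = 15) and 3.26 ± 0.427 CPM in Endo (SD, n = 13; adjusted p = 0.540 by edgeR).

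SLC38A7 (SNAT7), which exports glutamine and asparagine from the lysosome, was high in a few uteri. It was at 59.1 CPM in the co-cultured explant of uterus 53 and 54.6 CPM in that of uterus 16, against 1.79 to 8.27 CPM in the other 13 co-cultured libraries. In Endo it was at 42.7 CPM in uterus 53 and 21.8 CPM in uterus 17, against 3.75 to 9.86 CPM in the other 11. Its LogFC of 0.20 ± 0.53 (SE; edgeR adjusted p = 0.894) took the other sign in DESeq2 (-0.61), with 2 factors of unwanted variation (-0.26) and without uteri 16 and 56 (-0.29).

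The second comparison asked how conceptus sections changed on endometrium. Of 45 members tested, SLC38A7 fell in Endo-IVD Conc conceptus relative to IVD Conc and none rose (edgeR, adjusted p at most 0.05 over 14746 genes), where 3.65% of all genes fell and 3.59% rose. At an unadjusted p of at most 0.05, 11 members were lower and 1 (SLC36A4) was higher, where 12.0% of all genes were lower and 13.4% higher. DESeq2 called 5 members lower and 0 higher, and of all genes 6.79% lower and 7.87% higher. Without conceptus 5, edgeR called SLC38A7 alone, where 1.73% of all genes fell and 1.75% rose, and 8 members had an unadjusted p of at most 0.05, where 23.6% of all genes did. The median LogFC was -0.11 over the 45 members and 0.01 over all genes.

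SLC38A7 ran from 9.39 to 22.8 CPM in Endo-IVD Conc conceptus (median 14.2) and from 20.7 to 57.2 CPM in IVD Conc (median 27.2). The groups overlapped at their edge: co-cultured sections of conceptuses 71 and 47 (22.8 and 21.9 CPM) lay above the lowest IVD Conc library, that of conceptus 22 (20.7 CPM). Means were 15.0 ± 4.71 CPM in Endo-IVD Conc conceptus (SD, n = 9) and 31.4 ± 12.0 CPM in IVD Conc (SD, n = 8), with an edgeR LogFC of -1.06 ± 0.22 (SE) and an adjusted p of 0.0142. It was lower in co-culture in 7 of 7 conceptuses. The call was lost without the culture set of uteri 19 and 54, which holds conceptuses 22 and 47 (LogFC -1.20, adjusted p = 0.0781 by edgeR), and without that of uteri 14 and 39, which holds conceptuses 8 and 26 (-0.96, adjusted p = 0.200). It stood at -1.11 (adjusted p = 0.0230) without conceptus 5 and at -1.03 (adjusted p = 0.0407) without the 2 co-cultured sections of highest erythroid level, both by edgeR.

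With the conceptus as a block, edgeR called 4 members lower and none higher, in a fit that called 2.16% of all genes lower and 2.27% higher. They were SLC38A7 (LogFC -1.07, adjusted p = 0.0212), the SLC43 members SLC43A2 and SLC43A3, and SLC7A9. SLC43A2 ran from 9.00 to 150 CPM in Endo-IVD Conc conceptus (median 28.1) and from 34.9 to 208 CPM in IVD Conc (median 77.4). Of the 9 co-cultured sections, 8 lay between 9.00 and 35.7 CPM and that of conceptus 50 was at 150 CPM, and each of 7 conceptuses had less SLC43A2 in co-culture than alone. Its LogFC was -1.28 ± 0.25 (SE) with the block (edgeR adjusted p = 0.0293) and -1.35 ± 0.47 without it (adjusted p = 0.0863). With no block and without conceptus 5 it was -1.11 (adjusted p = 0.163 by edgeR).

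SLC43A3, which in human and rodent cells carries purine bases such as adenine rather than amino acids, ran from 5.22 to 24.0 CPM in Endo-IVD Conc conceptus (median 11.7) and from 11.1 to 52.2 CPM in IVD Conc (median 19.02). It was lower in co-culture in 7 of 7 conceptuses, with a LogFC of -0.69 ± 0.14 (SE) under the block (edgeR adjusted p = 0.0308) and -0.96 ± 0.34 without it (adjusted p = 0.0875), or -0.68 without conceptus 5 as well (adjusted p = 0.186). SLC7A9 (b0,+AT), which exchanges cystine and cationic amino acids as the partner of SLC3A1, ran from 0.709 to 14.6 CPM in Endo-IVD Conc conceptus and from 1.98 to 24.9 CPM in IVD Conc. Its blocked LogFC was -1.21 ± 0.27 (SE; edgeR adjusted p = 0.0357), with lower values in 6 of 7 conceptuses. SLC3A1 itself was at 0.885 ± 0.236 CPM in Endo-IVD Conc conceptus (SD, n = 9) and 1.37 ± 0.315 CPM in IVD Conc (SD, n = 8), lower in 7 of 7 conceptuses without passing the test (LogFC -0.63, adjusted p = 0.0782 by edgeR, 0.119 with the block and 0.144 without conceptus 5).

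**Figure D3:**
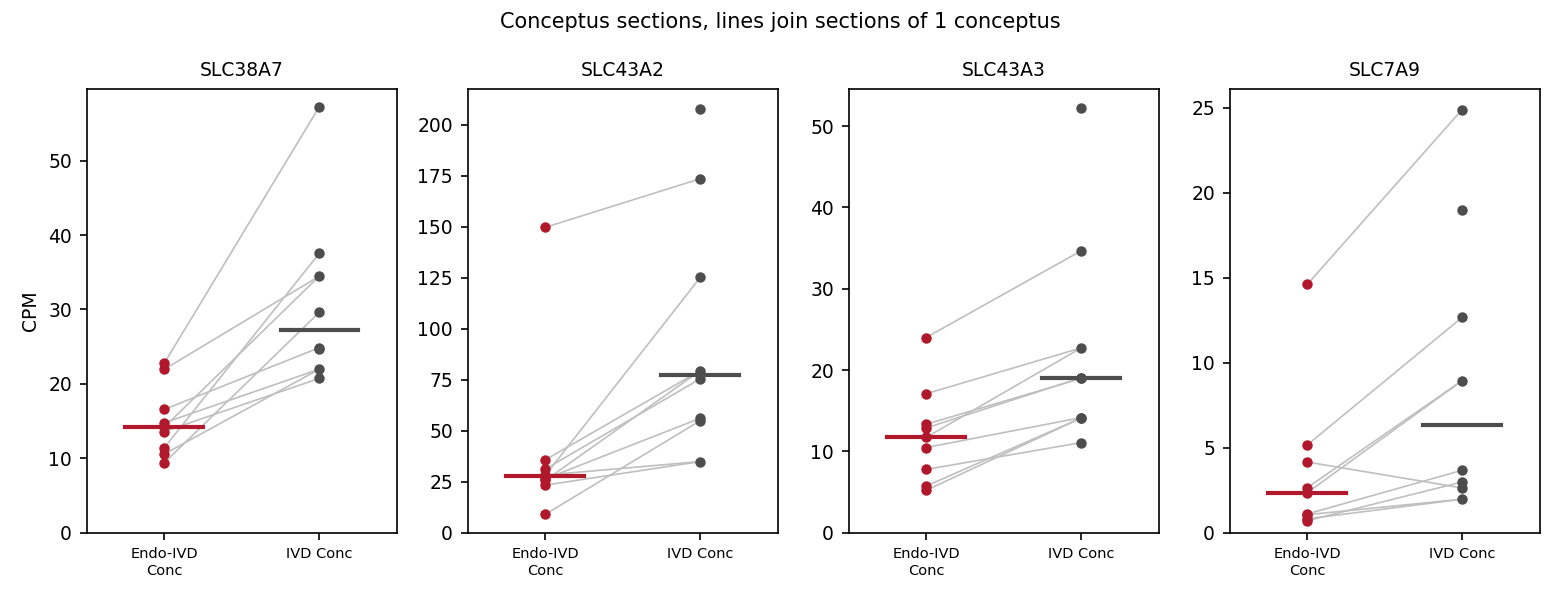
CPM of SLC38A7, SLC43A2, SLC43A3 and SLC7A9 in conceptus sections, Endo-IVD Conc (n = 9, left) and IVD Conc (n = 8, right); each point is a library, the bar is the median and lines join sections of 1 conceptus. Lines of SLC38A7, SLC43A2 and SLC43A3 run up to the right in all 7 conceptuses, and the co-cultured section of conceptus 50 stands out at 150 CPM for SLC43A2.

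Other carriers of the conceptus had large estimates with wide errors. SLC7A11 (xCT) had a LogFC of -1.75 ± 0.65 (SE; edgeR adjusted p = 0.105), and -1.44 without conceptus 5 (adjusted p = 0.195). It was called lower in DESeq2 (adjusted p = 0.0360). SLC1A4 had one of -1.06 ± 0.42 (adjusted p = 0.123 by edgeR), and -0.76 without conceptus 5. SLC6A9 had one of -1.0 ± 0.60 (adjusted p = 0.321 by edgeR), which lay between -1.69 and -0.52 when each culture set was left out, the smaller value being that without conceptus 5. SLC1A1 (EAAT3), which takes up glutamate and aspartate, was at 219 ± 89.3 CPM in Endo-IVD Conc conceptus (SD, n = 9) and 325 ± 70.9 CPM in IVD Conc (SD, n = 8), with an adjusted p of 0.138 by edgeR (0.195 without conceptus 5) and lower values in 7 of 7 conceptuses. With the conceptus as a block and its co-cultures summed, a fit that called 7.15% of all genes lower and 7.59% higher, 8 members were lower and 0 higher: the 4 named above, SLC1A1 (LogFC -0.50, adjusted p = 0.0180 by edgeR), SLC7A11 (-1.43, 0.0366), SLC38A10 (-0.45, 0.0303) and SLC7A6 (-0.55, 0.0326). SLC36A4 was the sole member higher at an unadjusted p of at most 0.05, at 14.0 ± 6.60 CPM in Endo-IVD Conc conceptus (SD, n = 9) and 8.48 ± 2.59 CPM in IVD Conc (SD, n = 8; LogFC 0.72, adjusted p = 0.102 by edgeR, and 0.168 without conceptus 5). The 6 light chains of the SLC7 family that were tested had a median LogFC of -0.89, the heavy chains one of -0.37 and the system A carriers one of -0.82, with no call in any of these groups without the block. With the conceptus as a block the medians were -0.50 for light chains and -0.17 for heavy chains. The 3 neutral amino acid carriers of the SLC6 family that were tested (SLC6A15, SLC6A17 and SLC6A19) had a median of 0.80, or 0.59 with the block, and no call. SLC1A5 and SLC3A2 had LogFC of 0.06 ± 0.46 and -0.11 ± 0.36 (SE), and of 0.51 for SLC1A5 and 0.22 for SLC3A2 with the conceptus as a block, none of them called.

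**Figure D4:**
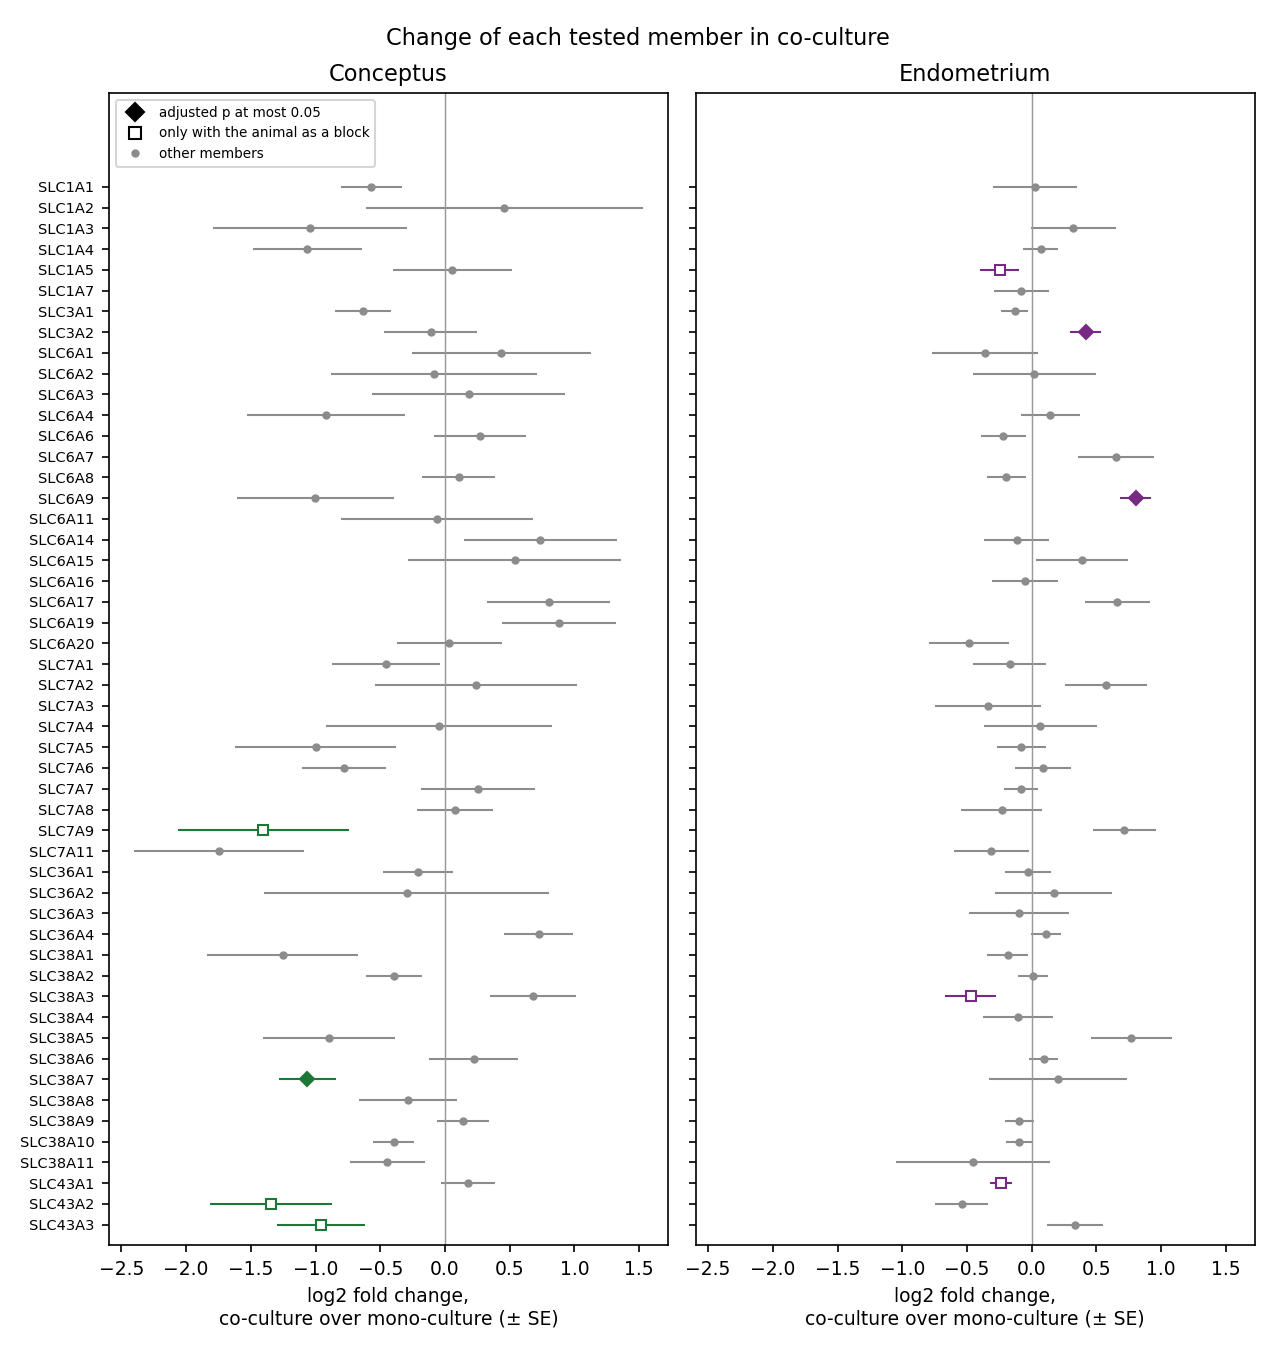
Log2 fold change of each tested member, co-culture over mono-culture, with its SE from edgeR without a block, in conceptus tissue (left) and endometrium (right). Filled diamonds passed the test (SLC38A7 in conceptus, SLC6A9 and SLC3A2 in endometrium), and grey points did not pass. Open squares passed it only with the animal as a block, but are drawn at their estimate without the block.

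The change in co-culture was also compared between the tissues, as the log2 ratio of co-culture over mono-culture within each of 7 conceptuses and 11 uteri. In an exact two-sided permutation test over 31824 splits, adjusted over all 13769 genes tested in both tissues, 9 of 40 members differed, and 24.5% of all genes did. SLC6A9 had a mean ratio of -0.60 ± 1.2 in conceptuses (SD, n = 7) and 0.66 ± 0.30 in uteri (SD, n = 11; exact permutation test, adjusted p = 0.0187). Its ratio was above zero in conceptuses 50 (0.42) and 66 (1.65). Where the spreads are this unequal, the test can respond to spread as well as to the means. SLC38A7 had -1.10 ± 0.47 in conceptuses (SD, n = 7) and 0.12 ± 0.89 in uteri (SD, n = 11; exact permutation test, adjusted p = 0.0106). SLC1A5 had 0.51 ± 0.75 in conceptuses (SD, n = 7) and -0.35 ± 0.37 in uteri (SD, n = 11; exact permutation test, adjusted p = 0.0186). SLC7A9 had -1.16 ± 0.92 in conceptuses (SD, n = 7) and 0.51 ± 0.77 in uteri (SD, n = 11; exact permutation test, adjusted p = 0.0106). SLC3A2 did not pass, at 0.18 ± 0.44 in conceptuses (SD, n = 7) and 0.27 ± 0.20 in uteri (SD, n = 11; exact permutation test, adjusted p = 0.736). Sections and explants from 1 dish share that dish, so conceptuses and uteri are not fully independent units in this test.

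Levels also varied from animal to animal. With co-culture in the model, 26 of 45 members differed between conceptuses, where 24.6% of all genes did, and 30 of 46 members differed between uteri, where 53.9% of all genes did (edgeR, adjusted p at most 0.05). All libraries of an animal were in the same culture set. Differences between animals and between culture sets thus cannot be fully told apart in this test. The conceptus count was 17 without conceptus 71, the sole conceptus of its culture set, where 15% of all genes differed. SLC7A4, an orphan member of the cationic SLC7 branch, had the widest span among members of more than 100 CPM: 15.0, 45.4, 191, 202, 591, 1535, 1649 and 2142 CPM in the IVD Conc libraries of conceptuses 5, 22, 50, 26, 66, 47, 8 and 71. In co-culture its levels ran from 50.8 CPM in conceptus 50 to 1863 CPM in a section of conceptus 47, lower than alone in 4 of 7 conceptuses and higher in 3, and its LogFC was -0.05 ± 0.87 (SE).

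The summed level of 21 trophoblast markers in the same IVD Conc libraries was 6677, 14780, 19538, 25295, 53772, 65136, 81192 and 76110 CPM for conceptuses 5, 22, 50, 26, 66, 47, 8 and 71, nearly the order of SLC7A4. The summed level of 6 hypoblast markers ran nearly the other way in these libraries, at 5694, 5504, 5645, 3341, 2789, 1977, 1835 and 1790 CPM for the same conceptuses, and that of 8 smooth muscle markers was 1029 CPM in conceptus 5 and 110.5 CPM in conceptus 71. The part of these other markers in the correlations below was not tested. In bulk tissue, fewer cells of a type and less RNA per cell cannot be told apart. Across the 8 IVD Conc libraries, SLC7A4 correlated with this sum with Spearman's rho 0.976 (exact permutation p = 3.97e-04, adjusted p = 0.0170 over all genes) and Pearson's r 0.985 on log2 values (exact permutation p = 9.92e-05, adjusted p = 0.00639), and r was 0.967 without the 2 libraries farthest from the median. Of 45 members, 20 correlated with the sum (8 positively and 12 negatively) at an adjusted p of at most 0.05 by exact permutation of Spearman's rho, where 15.4% of all genes did. This count of 20 fell to 0 without conceptus 5 (0.977% of all genes), 0 without conceptus 22 (1.01%), 1 without conceptus 50 (0.936%) and 2 without conceptus 26 (0.902%). It was 7, 8 and 11 without conceptuses 71, 47 and 66 (7.47%, 6.44% and 5.78% of all genes) and 19 without conceptus 8 (13.5%). At an unadjusted exact permutation p of at most 0.05 there were 25 to 31 members with 1 conceptus left out, where 29.1% to 35.8% of all genes passed, and 30 with 8 libraries, where 38.7% of all genes passed. Without conceptus 5, SLC7A4 had rho 0.964 (exact permutation test, adjusted p = 0.0659) and r 0.973 (exact permutation test, adjusted p = 0.0277).

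Beside SLC7A4, the members highest in sections with a high trophoblast sum included SLC36A2 (PAT2), which takes up glycine and proline with protons (rho 0.976, r 0.947, r without the 2 farthest 0.928), and SLC6A20 (SIT1), a proline carrier (rho 0.905, r 0.986, 0.961 without them). The members lowest in those sections included SLC7A5 (LAT1) (rho -0.905, r -0.979, -0.976 without them), SLC38A5 (SNAT5), a carrier of glutamine, serine and glycine (rho -0.952, r -0.969, -0.902 without them), and SLC43A2 (rho -0.905, r -0.900, -0.826 without them). For these 5 members the adjusted exact permutation p lay between 0.0170 and 0.0371 for rho and between 0.00639 and 0.0175 for r. Without conceptus 5, rho was 0.964 for SLC36A2, 0.857 for SLC6A20, -0.857 for SLC7A5 and SLC43A2 and -0.929 for SLC38A5, with adjusted exact permutation p between 0.0659 and 0.120, and r passed for all of them but SLC43A2 (r -0.846, exact permutation test, adjusted p = 0.0666). The 7 conceptuses in co-culture were also among those of the IVD Conc libraries, so agreement between the cultures is not an independent check. Across the 7 conceptuses in co-culture, where sections of 1 conceptus were averaged, 18 of the 20 (90%) kept the sign of rho, as 92.7% of all genes called did. There rho was 0.75 for SLC7A4 and -0.75 for SLC7A5, but -0.14 for SLC7A2, -0.21 for SLC7A1 and -0.32 for SLC38A2, and it had the other sign for SLC7A11 (0.07) and SLC38A10 (-0.29). SLC38A7 had rho 0.036 in Endo-IVD Conc conceptus and 0.857 in IVD Conc (exact permutation test, adjusted p = 0.0548). The median trophoblast sum was 55947 CPM in Endo-IVD Conc conceptus and 39533 CPM in IVD Conc, and its part in the differences between cultures was not tested. In endometrium, no member correlated with the sum of 11 epithelial markers over the 13 Endo libraries, as no gene did (permutation of Spearman's rho with 100000 resamples, adjusted p above 0.05). At an unadjusted p of at most 0.05, 5 of 46 members and 13.2% of all genes did, and by Pearson's r, 0 members passed after adjustment.

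**Figure D5:**
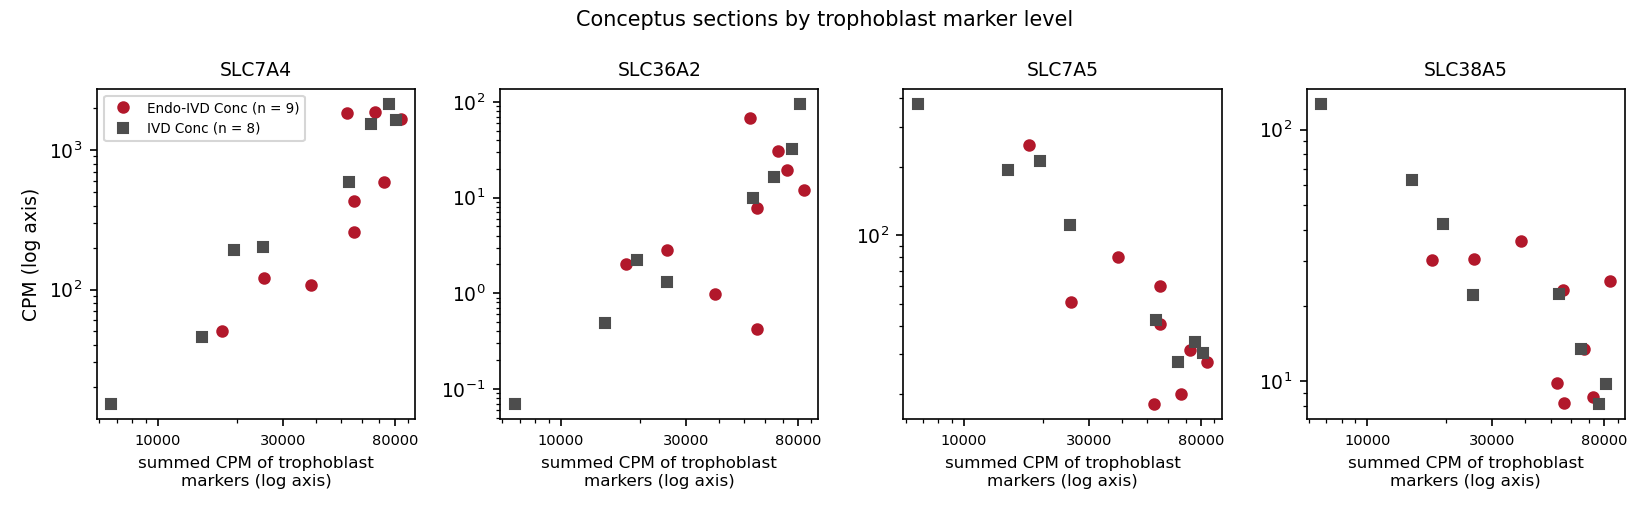
CPM of SLC7A4, SLC36A2, SLC7A5 and SLC38A5 (log axis) against the summed CPM of 21 trophoblast markers (log axis) in Endo-IVD Conc conceptus (circles, n = 9) and IVD Conc (squares, n = 8). SLC7A4 and SLC36A2 climb with the sum and SLC7A5 and SLC38A5 descend, and conceptus 5 is the leftmost square at 6677 CPM.

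Genes that use or sense amino acids were counted beside the carriers, from 5 lists, to be read against the 4.98% of all genes that rose and the 2.15% that fell in endometrium, or the 6.69% and 3.85% with the uterus as a block. In endometrium, 5 of 20 aminoacyl-tRNA synthetases, the enzymes that load tRNA, rose and none fell. WARS1, the tryptophan enzyme, was at 1158 ± 305 CPM in Endo-IVD Conc endometrium (SD, n = 15) and 221 ± 40.6 CPM in Endo (SD, n = 13), with a LogFC of 2.39 ± 0.14 (SE; edgeR adjusted p = 1.47e-14). CARS1 (LogFC 0.56), AARS1 (0.48), YARS1 (0.47) and TARS1 (0.45) rose by smaller steps. The list's median LogFC was 0.02, beside -0.04 for all genes, and 15 of the 20 were not called.

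In amino acid metabolism, 2 of 37 genes tested rose and 1 fell in endometrium, both risen genes belonging to tryptophan breakdown. IDO1, which opens the tryptophan ring, was at 200 ± 119 CPM in Endo-IVD Conc endometrium (SD, n = 15) and 10.2 ± 10.5 CPM in Endo (SD, n = 13), with a LogFC of 4.29 ± 0.47 (SE; edgeR adjusted p = 3.99e-08). KYNU, which cleaves kynurenine, had a LogFC of 2.27 ± 0.38 (SE) at 0.882 ± 0.60 CPM in Endo-IVD Conc endometrium (SD, n = 15) and 0.182 ± 0.118 CPM in Endo (SD, n = 13), and ODC1, the ornithine decarboxylase of polyamine synthesis, fell by 0.54 on the log2 scale (adjusted p = 0.0419 by edgeR). With the block OAT, the ornithine aminotransferase, was also called lower (LogFC -0.27). Of 29 genes of the amino acid response, PCK2 alone passed without the block (LogFC 0.74, adjusted p = 0.0336 by edgeR). With the uterus as a block 3 rose, PCK2 (LogFC 0.88), SESN2 (0.39) and DDIT3 (0.30), and PYCR1 fell (-0.69). Of 39 genes of mTORC1 amino acid sensing, RRAGA and KPTN fell (LogFC -0.28 and -0.35), though KPTN was not called with the uterus as a block (adjusted p = 0.0720 by edgeR) and RHEB was called higher in that fit (LogFC 0.22). Of 16 other amino acid carriers, SLC15A3, a lysosomal carrier of histidine and dipeptides, rose, at 56.5 ± 25.7 CPM in Endo-IVD Conc endometrium (SD, n = 15) and 8.08 ± 2.72 CPM in Endo (SD, n = 13; LogFC 2.80, edgeR adjusted p = 1.82e-10).

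In conceptus tissue, where 3.65% of all genes fell and 3.59% rose (2.16% and 2.27% with the conceptus as a block), 3 of 29 genes of the amino acid response fell and 1 rose. ATF5, a transcription factor made under amino acid shortage, was at 5.11 ± 1.79 CPM in Endo-IVD Conc conceptus (SD, n = 9) and 12.9 ± 3.64 CPM in IVD Conc (SD, n = 8), with a LogFC of -1.33 ± 0.21 (SE; edgeR adjusted p = 0.00654). PSPH, the last enzyme of serine synthesis, fell by 1.04 and NUPR1 by 0.82 on the log2 scale, the NUPR1 call being lost with the conceptus as a block (adjusted p = 0.0608 by edgeR). DDIT4, an inhibitor of mTORC1, rose, at 923 ± 475 CPM in Endo-IVD Conc conceptus (SD, n = 9) and 297 ± 147 CPM in IVD Conc (SD, n = 8; LogFC 1.63, edgeR adjusted p = 0.0312). With the block 2 fell (ATF5 and PSPH) and 2 rose (DDIT4 and PPP1R15A, LogFC 1.68). Without conceptus 5, ATF5 and DDIT4 were called and PSPH (adjusted p = 0.0836) and NUPR1 (0.0654) were not, by edgeR. Without the culture set of conceptuses 8 and 26, edgeR called 0 of 14667 genes in conceptus tissue. All calls made without a block, in this list and in those below, were thus lost in that fit. The list's median LogFC was -0.17, beside 0.01 for all genes, and -0.04 without conceptus 5.

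Of 39 genes of mTORC1 amino acid sensing, 2 rose in conceptus sections and none fell. CASTOR1, an arginine sensor, was at 10.5 ± 3.24 CPM in Endo-IVD Conc conceptus (SD, n = 9) and 5.249 ± 1.256 CPM in IVD Conc (SD, n = 8; LogFC 1.0, edgeR adjusted p = 0.0123). RRAGD, a Rag GTPase, had a LogFC of 1.55 (adjusted p = 0.0364, 0.0700 with the conceptus as a block and 0.0672 without conceptus 5, by edgeR). Among synthetases FARSA fell by 0.70 on the log2 scale and QARS1 rose (LogFC 0.48; adjusted p = 0.0785 with the block by edgeR), and without conceptus 5 neither was called (adjusted p = 0.0733 and 0.0727). SMS, the spermine synthase, was the 1 of 35 metabolism genes to rise (LogFC 0.56), and with the block BCAT1, a branched-chain aminotransferase, was called lower beside it (LogFC -0.70, adjusted p = 0.0385 by edgeR). SLC25A44, the mitochondrial carrier of branched-chain amino acids, was the 1 of 15 other carriers to fall (LogFC -0.66, lower in 7 of 7 conceptuses). With the block the mitochondrial aspartate and glutamate carriers SLC25A12 (LogFC -1.45, adjusted p = 0.0334) and SLC25A13 (-0.54, 0.0343) were also called lower by edgeR, and SLC25A12 was called without conceptus 5 as well (adjusted p = 0.0457).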

How the data were processed

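RNA was sequenced from endometrial explants and conceptus sections. The deposited files hold raw counts per gene, made by the authors with Trimmomatic, then STAR for endometrium or HISAT2 for conceptus on the ARS-UCD1.2 build, then featureCounts. Versions and strandedness of counting were not given in the sources used here. In vitro produced conceptus libraries are not analysed here.

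Each tissue was fitted with edgeR 4.0.16 (R 4.3.3; quasi-likelihood test, robust, TMM factors, filterByExpr with a minimum count of 10, Benjamini-Hochberg adjusted p at most 0.05 over all genes) without a block. The fit was tested on simulated data that held no differences between animals. That simulation thus does not bear on explants of 1 uterus, or sections of 1 conceptus, taken as separate samples. A row with no gene name (1 in the endometrial table) was left out. A level of 3 counts corresponds to 0.0469 to 0.0679 CPM in endometrium and 0.0287 to 0.0512 CPM in conceptus. No 2 libraries of a group agreed within sampling noise. Libraries were paired by uterus or conceptus in the labels: all 15 same-uterus pairs (median correlation of deviations 0.349) and all 9 same-conceptus pairs (0.500) exceeded 0.1. P-values take explants of 1 uterus as separate samples unless the block is named.

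Alternatives were the animal or culture set as a block, DESeq2 1.42.0, RLE factors, no filter, 2 RUVr factors and left-out culture sets. Members and lists were chosen with earlier results of these data known. The rule for named members took those that passed the test in either tissue, SLC6A9, SLC38A7, SLC1A5, SLC43A2, SLC1A4 and both SLC3 heavy chains, with up to 4 genes of each pathway list, called ones first. Its further part, the 8 members of highest FPKM, could not be applied without transcript lengths, so CPM was used. Other members described, list genes named beyond 4, the tests singled out without conceptus 5, the tests between animals, the marker correlations (log2 of CPM plus 0.5) and the tissue difference (log2 ratios with an offset of 0.01 CPM) were chosen after values were seen.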

Additional observations from a re-analysis of the deposited data

Results flagged for a closer look

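In conceptus tissue, 7 of 32 groups of libraries examined (16 members, each in co-culture and mono-culture) held 1 library far from the others by Dixon's test, where 13.7% of such groups over all genes tested did. The nominal rate of about 5% holds for normally distributed values, and CPM were not log-transformed here, so 13.7% is the share to read against. These members were chosen after their values were seen. The co-cultured section of conceptus 50 was highest for SLC43A2 (150 CPM, next 35.7 CPM), SLC7A5 (250.4 CPM, next 80.7 CPM) and SLC7A9 (14.6 CPM, next 5.16 CPM). SLC36A2 was at 68.8 CPM in the co-cultured section of conceptus 71 (next 31.1 CPM) and at 95.4 CPM in the IVD Conc library of conceptus 8 (next 32.6 CPM). SLC38A7 was at 57.2 CPM in the IVD Conc library of conceptus 71 (next 37.5 CPM), and SLC3A1 at 2.06 CPM in that of conceptus 5 (next 1.45 CPM).

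The log2 ratio of co-culture over mono-culture differed between the tissues for 5 of the 7 members named by rule, which were named in part for a call in 1 tissue, beside 9 of 40 members and 24.5% of all genes tested. The difference, conceptus minus endometrium, was -1.21 for SLC38A7 and -1.26 for SLC6A9. It was 0.86 for SLC1A5. It was -0.42 for SLC3A1 (exact permutation test, adjusted p = 0.0310) and -0.72 for SLC1A4 (exact permutation test, adjusted p = 0.0377).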

How the results depend on the processing

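Of 196 fold changes recomputed under an alternative setting, 167 kept their direction and their side of the threshold and 10 changed sign. Of 62 recomputed counts of members, 40 stayed within 1.5 times the count reported. In endometrium, 2 members were called (7.13% of all genes), against 5 with the uterus as a replicate block (10.5%), 4 with the block and summed co-cultures (7.99%), 1 without uteri 38 and 69 (5.2%), and 1 to 3 when each culture set was left out (4.24% to 7.59%). With summed co-cultures SLC1A5 and SLC38A3 dropped out of those 5 and SLC6A17 entered. In conceptus, 1 was called (7.24% of all genes), against 4 with the conceptus as a replicate block (4.43%), 8 with the block and summed co-cultures (14.7%), 5 in DESeq2 (14.7%), 15 with 2 RUVr factors (28.9%) and 0 to 2 when each culture set was left out (0% to 6.28%). In edgeR it was 0 without the set of conceptuses 22 and 47 (0.483% of all genes; 6 members at an unadjusted p of at most 0.05) and 0 without that of conceptuses 8 and 26 (0% of all genes; 5 members at that p). Members correlated with the trophoblast sum numbered 20, against 0 to 19 when each conceptus was left out, and members differing between conceptuses 26, against 17 to 27 (12.3% to 23.1% of all genes). Signs changed for SLC38A7 in endometrium (-0.61 in DESeq2, -0.26 with RUVr factors, -0.29 without uteri 16 and 56), SLC1A4 in endometrium (-0.0015 without uteri 45 and 53), SLC3A2 in conceptus (0.22 with the block, 0.19 with summed co-cultures, 0.14 with the culture set as a block, 0.16 without conceptus 5) and SLC1A5 in conceptus (-0.06 without conceptuses 8 and 26, -0.25 without conceptuses 50 and 66). With each culture set left out, these values ranged from -0.29 to 0.38 for SLC38A7 and -0.0015 to 0.15 for SLC1A4 in endometrium, and from -0.38 to 0.16 for SLC3A2 and -0.25 to 0.39 for SLC1A5 in conceptus. None of these sign changes passed the test, and the cause was not tested. Alternatives on FPKM were not run.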
